A study of Mus musculus with 2 samples.

Results

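The genes described here include regulators of smooth and striated muscle. They are the transcription factor gene Srf, the cofactor gene Myocd and the MEF2 family genes Mef2a, Mef2c and Mef2d. The muscle genes Csrp1 and Synm are described with them. These 7 were chosen by name, with no measured value in the rule, from 21938 protein-coding genes of the GENCODE M21 annotation. Earlier results of these data were known when they were chosen. For each gene, every accessible site that overlapped the gene body or the 50 kb on either side of it was taken from each library. The assay was DNase-seq, which maps where the nuclease DNase I can cut chromatin in nuclei. The tissue was whole urinary bladder, and the donors were 36-day-old male mice of the hybrid B6CASTF1/J, the first-generation cross between C57BL/6J and CAST/EiJ. There was 1 group with 2 libraries, replicate 1 and replicate 2, and no treatment or other condition. The labels number the source mice apart but give both the same donor record. They were taken as separate animals, which the labels do not settle, so an SD here measures the spread between 2 libraries, which may be technical.

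SRF is a MADS-box transcription factor that binds as a dimer to the CArG box, a short element near genes of the contractile apparatus and near immediate early genes. Myocardin, the product of Myocd, does not recognise the CArG box itself and works by binding SRF. It is largely restricted to smooth and cardiac muscle, whereas the related MRTF cofactors are widely expressed and are held in the cytoplasm by monomeric actin. MEF2 proteins are related MADS-box factors that bind an AT-rich element, the MEF2 box, and are restrained by class IIa histone deacetylases. Csrp1 encodes a LIM-domain protein of the actin cytoskeleton and Synm encodes synemin, an intermediate filament protein that links desmin filaments to adhesion sites. In the bladder such genes act in the detrusor, the smooth muscle layer that empties it.

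The libraries held 38674 peaks in replicate 1 and 47661 in replicate 2, with 140919 and 167442 footprints, which are short stretches inside accessible chromatin that were cut less than their surroundings. The smallest unit of peak height was 0.0113 in replicate 1 and 0.00893 in replicate 2, here called a step, and read depth was not given with them. Since the scale differed, heights were also ranked among all peaks of their own library, as a percentile. A peak at a start in both libraries was found for 56.3% of all protein-coding genes. It was found for 7 of 8 urothelial markers and for 4 of 10 smooth muscle markers, and these lists are short. Acta2, Actg2, Tagln, Cnn1, Des and Lmod1 had none in either library. The counts were 1 of 7 for skeletal muscle (Mylpf, whose peak also lies at the start of Tbc1d10b), 1 of 6 for cardiac muscle, 0 of 4 for neurons and 0 of 4 for immune cells. In this mixed tissue, a low peak from few cells of a type cannot be told apart from a low peak from less accessible chromatin per cell.

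Sequences of the sites on which the results turn are printed from the GRCm38 patch 6 assembly (the coordinates of mm10), each from 5′ to 3′ on the strand of its gene, with the motifs named beside it in capitals. The Srf, Mef2a, Mef2d and Synm stretches are the parts of the start peaks upstream of the first exon (for Srf without the outermost bases of the replicate 1 peak), and the Csrp1 stretch lies upstream of the gene's second annotated start. The Srf start is chr17:46556181-46556480 on the minus strand, with 2 CArG boxes, an ETS motif, GC boxes and CCAAT boxes.
Srf start: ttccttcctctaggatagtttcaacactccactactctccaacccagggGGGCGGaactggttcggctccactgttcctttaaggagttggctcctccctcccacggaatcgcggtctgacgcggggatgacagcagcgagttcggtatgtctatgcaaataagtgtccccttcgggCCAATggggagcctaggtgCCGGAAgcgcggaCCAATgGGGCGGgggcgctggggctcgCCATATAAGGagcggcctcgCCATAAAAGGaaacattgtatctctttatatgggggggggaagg
The Mef2a start is chr7:67372859-67373060 on the minus strand, with an ETS and an NRF1 motif, and the adjoining 30 bases with the MEF2 box are chr7:67372841-67372870.
Mef2a start: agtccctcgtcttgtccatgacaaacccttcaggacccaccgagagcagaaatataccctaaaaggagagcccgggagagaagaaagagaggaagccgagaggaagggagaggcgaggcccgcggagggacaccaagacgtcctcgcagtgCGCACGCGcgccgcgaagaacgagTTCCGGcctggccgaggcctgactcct
Mef2a MEF2 box: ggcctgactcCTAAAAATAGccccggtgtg
The Mef2d start is chr3:88142241-88142371 on the plus strand, with GC boxes and a CCAAT box, and the site upstream of it, with a CRE, is chr3:88138361-88138580.
Mef2d start: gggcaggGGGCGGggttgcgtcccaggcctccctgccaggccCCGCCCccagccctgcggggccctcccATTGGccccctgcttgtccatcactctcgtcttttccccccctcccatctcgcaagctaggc
Mef2d upstream: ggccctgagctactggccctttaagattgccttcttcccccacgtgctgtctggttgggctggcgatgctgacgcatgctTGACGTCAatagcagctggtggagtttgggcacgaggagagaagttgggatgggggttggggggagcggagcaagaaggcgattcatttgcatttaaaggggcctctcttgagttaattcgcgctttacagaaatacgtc
The Csrp1 start is chr1:135729041-135729146 on the plus strand, with a GC box.
Csrp1 start: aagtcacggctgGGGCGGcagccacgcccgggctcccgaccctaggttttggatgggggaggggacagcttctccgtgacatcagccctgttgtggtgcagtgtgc
The Synm start is chr7:67759743-67759960 on the minus strand, with a CTCF site and a CCAAT box.
Synm start: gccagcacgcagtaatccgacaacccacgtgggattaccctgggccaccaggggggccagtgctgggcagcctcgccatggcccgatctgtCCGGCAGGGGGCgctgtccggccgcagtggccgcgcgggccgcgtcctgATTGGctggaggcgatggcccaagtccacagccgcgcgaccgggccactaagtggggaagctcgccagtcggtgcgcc
The sites inside Myocd and Mef2c, the highest within each of these gene bodies, are chr11:65197401-65197540 on the minus strand, with a CCAAT box, and chr13:83654981-83655160 on the plus strand, with a CTCF site and an AP-1 motif.
Myocd intron: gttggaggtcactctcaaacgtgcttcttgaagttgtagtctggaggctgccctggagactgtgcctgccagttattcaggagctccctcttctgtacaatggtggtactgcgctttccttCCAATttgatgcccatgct
Mef2c intron: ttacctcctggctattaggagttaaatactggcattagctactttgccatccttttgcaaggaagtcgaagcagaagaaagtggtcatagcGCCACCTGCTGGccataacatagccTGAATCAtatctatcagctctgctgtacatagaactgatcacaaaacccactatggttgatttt

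Of the 7 genes, 6 had a peak within 500 bases of an annotated transcription start in both libraries, and Myocd was the exception. The same held for 56.3% of all protein-coding genes, so a start peak was the more common state in the annotation as a whole. Any annotated start counted, and the number of distinct starts ran up to 27, for Mef2c. At the gene's 5′ end alone, 4 of the 7 had such a peak, against 50.9% of all protein-coding genes. Among genes with a start peak in both libraries, the median of the mean height percentile was 86.5 for the 6 genes here. Over all protein-coding genes it was 83.8. By height percentile the 6 ran from low to high in both libraries, with Mef2a highest and Mef2c lowest.

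Srf (ENSMUSG00000015605.6, chromosome 17, 46548329 to 46556175, minus strand) had a start peak of height 3.15 in replicate 1 and 4.04 in replicate 2. These heights, equal to 278 and 453 steps, stood at percentiles 83.6 and 93.2 of their libraries (mean 88.4 ± 6.77, SD, n = 2). The peak lay just upstream of the first exon, at positions -325 to -6 (counted along the gene, with 0 at its first base) in replicate 1 and -305 to -26 in replicate 2. The deposited per-site FDR fell as low as 1.81e-17 in replicate 1 and 4.19e-30 in replicate 2 within the start window. No listed base lay within 500 bases of the gene's 3 internal starts in either library, so access at Srf starts was seen at the first start alone. A low peak of height 1.24 followed inside the first exon in replicate 1, where replicate 2 had a peak of height 0.741 only in its longer, more permissive list.

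Myocd (ENSMUSG00000020542.18, chromosome 11, 65176561 to 65269989, minus strand) had no start peak in either library at any of its 6 annotated starts. In the longer list, replicate 1 had a peak of height 0.408 at the first start and replicate 2 had none. The lowest per-site FDR there was 0.00636 in replicate 1, with 360 of 1001 bases listed at or under 0.05, and replicate 2 had no listed base. The Myocd start was therefore at the edge of detection in 1 library and below it in the other. The lack of a peak at this depth does not show that the start was closed in every cell of the tissue.

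Mef2a (ENSMUSG00000030557.17, chromosome 7, 67231163 to 67372858, minus strand) had the highest start peak of the group, with heights of 4.43 in replicate 1 and 5.46 in replicate 2. The percentiles were 93.9 and 97.8 (mean 95.8 ± 2.74, SD, n = 2). A second peak upstream, centred at -0.613 kb, reached 2.15 in replicate 1 and 1.94 in replicate 2. Both libraries thus had a pair of accessible sites at the Mef2a start, of which the one over the start itself was the higher.

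Mef2d (ENSMUSG00000001419.17, chromosome 3, 88142372 to 88172086, plus strand) had a start peak of 2.91 in replicate 1 and 3.27 in replicate 2, at percentiles 80.8 and 88.5 (mean 84.6 ± 5.41, SD, n = 2). The peak was unequal in extent: it ran from -131 to 108 bases in replicate 1 and from -131 to -72 bases in replicate 2. Mef2c (ENSMUSG00000005583.16, chromosome 13, 83504034 to 83667080, plus strand) had the lowest start peak, with heights of 0.612 and 0.634 at percentiles 5.40 and 15.0 (mean 10.2 ± 6.78, SD, n = 2). It lay inside the gene, centred 20.7 kb from the 5′ end, over a cluster of annotated starts. The first start of Mef2c had no listed base within 500 bases in either library. Of the MEF2 genes, Mef2a and Mef2d were thus open at the gene's 5′ end in both libraries and Mef2c was not.

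Csrp1 (ENSMUSG00000026421.14, chromosome 1, 135720061 to 135752232, plus strand) was also most accessible at an internal start. The downstream annotated start, at 9.09 kb into the gene, had heights of 2.24 in replicate 1 and 2.40 in replicate 2, at percentiles 70.7 and 80.7 (mean 75.7 ± 7.06, SD, n = 2). The 5′ end of the gene had a peak of 1.37 in replicate 2 only, with a peak of 1.20 in the longer list of replicate 1. Synm (ENSMUSG00000030554.16, chromosome 7, 67730160 to 67759742, minus strand) had a start peak of 4.29 in replicate 1 and 3.78 in replicate 2, at percentiles 93.0 and 91.8 (mean 92.4 ± 0.829, SD, n = 2). Synm was the single member whose percentile was higher in replicate 1, and its percentiles differed least between the libraries. By height, however, Mef2c, Csrp1 and Mef2d differed less between the libraries than Synm. Over all shared sites the median percentile was also higher in replicate 2, although the median height was lower there. The direction of a gene's percentile difference therefore includes a shift common to all shared sites, and so does the SD of its percentiles. Srf was above Mef2d in each library, by less than either gene's SD between libraries, and the order of Srf and Synm differed between the libraries. The lower value of Mef2a, 93.9, lay just above the higher value of Synm, 93.0, a gap smaller than the SD of Mef2a. Mef2c lay below all other start peaks in both libraries.

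**Figure D1:**
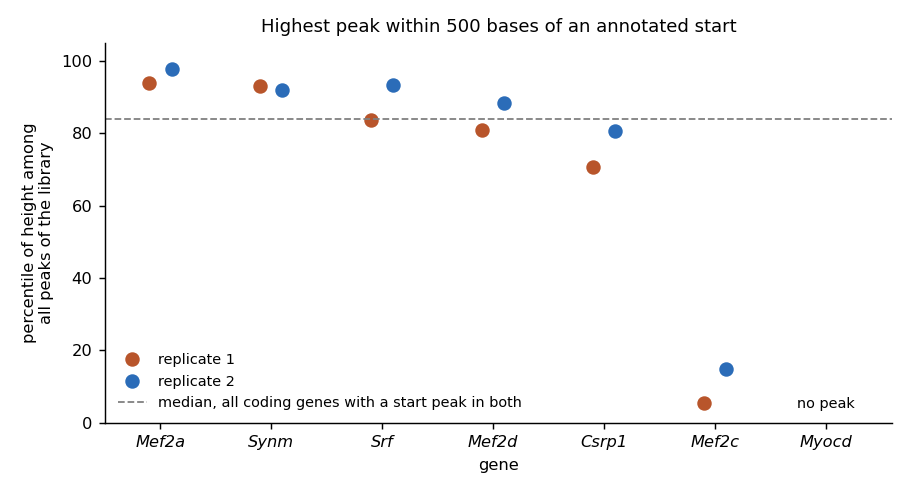
Percentile of the height of the highest peak within 500 bases of an annotated start, among all peaks of the library (vertical axis), for each gene (horizontal axis); each point is 1 library and the dashed line is the median over all coding genes with a start peak in both libraries (83.8). Mef2a and Synm lie above the line in both libraries, Mef2c lies at 5.40 and 15.0, and Myocd has no peak.

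Except at Myocd, the presence of a peak at the 5′ end in both libraries followed the CpG content of the start. This is the ratio of observed to expected CpG dinucleotides in the 1001 bases around the 5′ end, and the grouping was added after the values were seen. All 4 genes with a ratio of at least 0.75 (Srf, Mef2a, Mef2d and Synm) had a peak there in both libraries, as did 91.7% of all coding genes in this class. Myocd, with a ratio of 0.552, fell in the class from 0.5 to under 0.75, where 77.0% of genes had such a peak. Csrp1 at 0.277 and Mef2c at 0.296 fell below 0.5, where 12.0% had one. By peaks in both libraries, the members therefore followed the majority of their class except Myocd. Csrp1 did have a 5′ peak of height 1.37 in replicate 2 only. The internal starts with peaks in both libraries had ratios of 0.515 (Csrp1) and 0.668 to 0.730 (Mef2c), in the class of Myocd.

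The windows of the 7 genes held 61 sites, of which 38 had a peak in both libraries, 7 in replicate 1 alone and 16 in replicate 2 alone. The shared fraction was 62.3% (exact Clopper-Pearson 95% interval 49.0 to 74.4%, counting error only), against 61.7% of all 51228 sites, so replication at these genes was at the background. Of the sites of a single library, 3 of 7 for replicate 1 and 7 of 16 for replicate 2 had a peak in the longer list of the other library. Over all such sites the shares were 56.1% for replicate 1 and 56.9% for replicate 2. Single-library sites were low, with medians of 0.964 in replicate 1 and 0.960 in replicate 2, and none was higher than 1.62. At shared sites the median heights were 1.81 in replicate 1 and 1.74 in replicate 2, against 1.67 and 1.54 over all shared sites.

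Across the 38 shared sites, heights had a Spearman correlation of 0.896 between the libraries, against 0.935 over the 31612 shared sites of the genome. The points share libraries and site width, and no p-value is given. The log2 ratio of replicate 2 over replicate 1 had a median of 0.09 and an SD of 0.33 at the 38 sites. Over all shared sites the median was -0.08 and the SD 0.32. The most unequal sites differed by 0.69 and -0.66 on this log2 scale. The spread between libraries at these genes was thus about that of the genome.

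**Figure D2:**
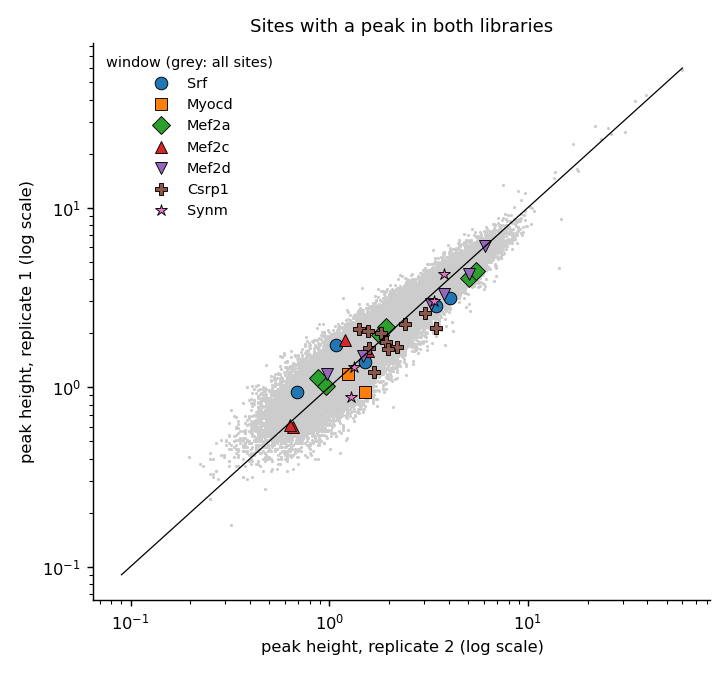
Peak height in replicate 1 (vertical axis) against replicate 2 (horizontal axis), both on a log scale, for the 38 sites shared by the libraries in the windows of the 7 genes (symbols by gene) and for all 31612 shared sites (grey); the line marks equal heights. The symbols follow the grey cloud, and the sites of a gene differ in height. The lowest site in each library is in the Mef2c window and the highest in the Mef2d window.

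The windows reach 50 kb beyond each gene, and most accessible sites in them lay away from the genes' own starts. A start of any gene held 24 of the 61 sites, and 21511 of all 51228 sites, so these windows were near the genome in this. By annotation, 10 sites (7 shared) were at a start of the gene itself, 14 (10 shared) at a start of another gene, 22 (11 shared) in introns, 12 (8 shared) between genes, 2 (2 shared) in noncoding exons and 1 (0 shared) in a coding exon. Shared sites numbered 11 in the Csrp1 window, 6 each for Mef2a and Mef2d, 5 for Srf, 4 each for Mef2c and Synm and 2 for Myocd. The median of 5 compares with 3 over all coding genes. Windows differ in length, and per 100 kb of window the median was 3.09 shared sites for the 7 genes and 2.50 for all coding genes, with Csrp1 highest at 8.32 and Myocd lowest at 1.03.

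The Srf window had a strong site besides the start, in intron 2 at 3.03 kb from the 5′ end, with heights of 2.85 in replicate 1 and 3.44 in replicate 2. This site, which also overlaps the noncoding gene Gm26904, held 6 footprints in replicate 1 and 5 in replicate 2. It was nearly as high as the start of the gene, at percentiles 80.0 and 89.7. The other 3 shared sites of the window lay at starts of Cul9, which encodes a cullin of ubiquitin ligases.

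The Myocd window held 2 shared sites. The one inside the gene lay in intron 7, at 72.5 kb from the 5′ end, with heights of 0.941 in replicate 1 and 1.52 in replicate 2. Its percentiles were 24.0 and 64.1, a wider gap between the libraries than at any shared site of Srf or the MEF2 genes. The other lay at the start of Arhgap44, downstream of Myocd, with heights of 1.18 and 1.24.

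In the Mef2a window the highest site away from the gene's start was at 150 kb, over the starts of Lysmd4 and 1700112J16Rik, with heights of 4.06 in replicate 1 and 5.04 in replicate 2. The shared distal sites were lower. An intergenic site at 173 kb had heights of 1.95 and 1.79, one in an intron of 1700112J16Rik at 156 kb had 1.12 and 0.875, and one in Mef2a intron 7 at 113 kb had 1.02 and 0.964. The long Mef2a gene body thus held 1 shared site beyond its start, and that site also lies within Lysmd4.

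All 4 sites of the Mef2c window were shared, although the window was the longest of the 7 at 263 kb. An intergenic site at 211 kb, beyond the 3′ end, had heights of 1.60 in replicate 1 and 1.56 in replicate 2. The site in intron 8 at 151 kb had 1.83 and 1.20, and the site in intron 1 at 14.4 kb had 0.601 and 0.661. The sites at 211 and 151 kb were higher than the Mef2c start peak itself in each library.

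The Mef2d window held the highest peak of the group, at 35.7 kb. It was 1 of a pair of sites at the start of the noncoding gene 1700113A16Rik, downstream of Mef2d. The site at 35.7 kb had heights of 6.09 in replicate 1 and 6.10 in replicate 2, and the site at 35.4 kb had 4.27 and 5.04. Upstream, a site at -3.90 kb reached 3.29 in replicate 1 and 3.77 in replicate 2, above the Mef2d start peak in both libraries. Its neighbour at -3.42 kb reached 1.49 and 1.47, and a site in an exon of Gm3764 at 78.7 kb reached 1.18 and 0.973.

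The Csrp1 window was the densest, with 20 sites, and more shared sites than 96.2% of coding genes (ties counted as mid-ranks). Its count of 11 shared sites was 7 when peaks had to overlap by 50% of each, 5 in a window of 20 kb and 1 in the gene body alone, and replicate 2 alone had 18 sites there. Its highest shared distal site lay at 33.1 kb, just beyond the 3′ end, with heights of 2.13 in replicate 1 and 3.44 in replicate 2. Sites at 69.95 kb, in an intron of the slow skeletal troponin gene Tnni1, and at -49.5 kb, in an intron of Gm38399, followed with 2.00 and 1.82, and with 1.68 and 2.19. The start of Phlda3, at 46.2 kb, had 2.60 and 3.03. A part of the density therefore lay at or in the neighbours Phlda3, Tnni1 and Gm38399, and no readout here ties a site to the gene it acts on.

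The Synm window had 4 shared sites and 4 found in replicate 2 only. Its highest site after the Synm start lay at -44.0 kb, over the start of the noncoding gene 4833412C05Rik, with heights of 3.03 in replicate 1 and 3.37 in replicate 2. The shared distal sites were in an intron of Ttc23 at 55.3 kb, with 1.29 and 1.33, and in an intron of 4833412C05Rik at -29.1 kb, with 0.884 and 1.29. Inside Synm introns there were only single-library sites, at 4.93 kb with 1.06 and at 17.9 kb with 0.696, both in replicate 2. Both also lie within Ttc23.

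**Figure D3:**
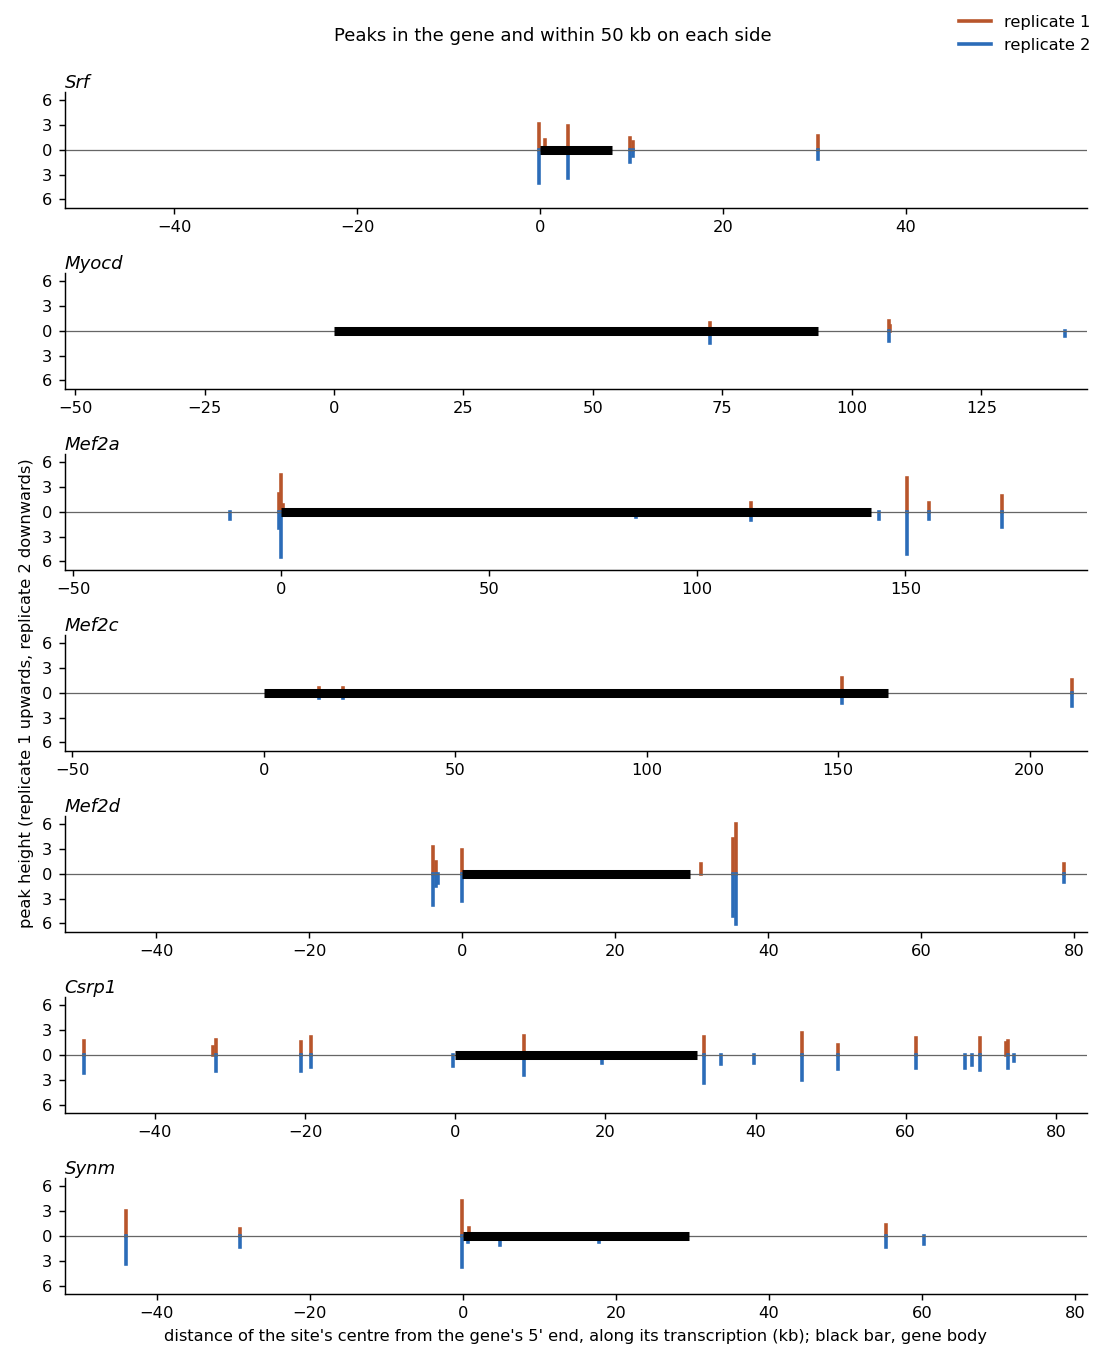
Peaks in the window of each gene, by distance of the site's centre from the gene's 5′ end in kb (horizontal axis, in the direction of transcription) and peak height (vertical axis), with replicate 1 upwards and replicate 2 downwards; the black bar is the gene body. The Csrp1 window holds 11 shared sites and the Myocd window 2, and the highest bar stands at 35.7 kb in the Mef2d window.

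The CArG box, written as CC, 6 bases each A or T, and GG, was rare in these sites and in all sites. In the 200 bases centred on the site, it was found in 1 of 61 member sites on either strand, against 0.826% of all sites. That match lay at the 1700113A16Rik start in the Mef2d window. Over the full length of each site, 3 of 61 member sites held the box, against 0.992% of all sites. These were this one, the Srf start and the 4833412C05Rik start in the Synm window. The Mef2d box with 10 bases on either side is chr3:88177671-88177700 on the plus strand, and the Synm box is chr7:67803612-67803641 on the minus strand.
Mef2d CArG box: caggactactCCTATTTAGGacatgagctg
Synm CArG box: ctttccaagaCCAAATAAGGgggctcttgc

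The Srf start held a pair of CArG boxes in tandem, at positions -69 to -60 and -49 to -40, the capitals nearest to the 3′ end of the printed Srf sequence. Both boxes lay inside the start peak of each library. No footprint overlapped either box in replicate 1 or in replicate 2. The nearest footprints lay on either side of the pair: at -84 to -78 in both libraries, and at -25 to -16 in replicate 1 and -22 to -7 in replicate 2. A box under no footprint does not show that SRF was absent.

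**Figure D4:**
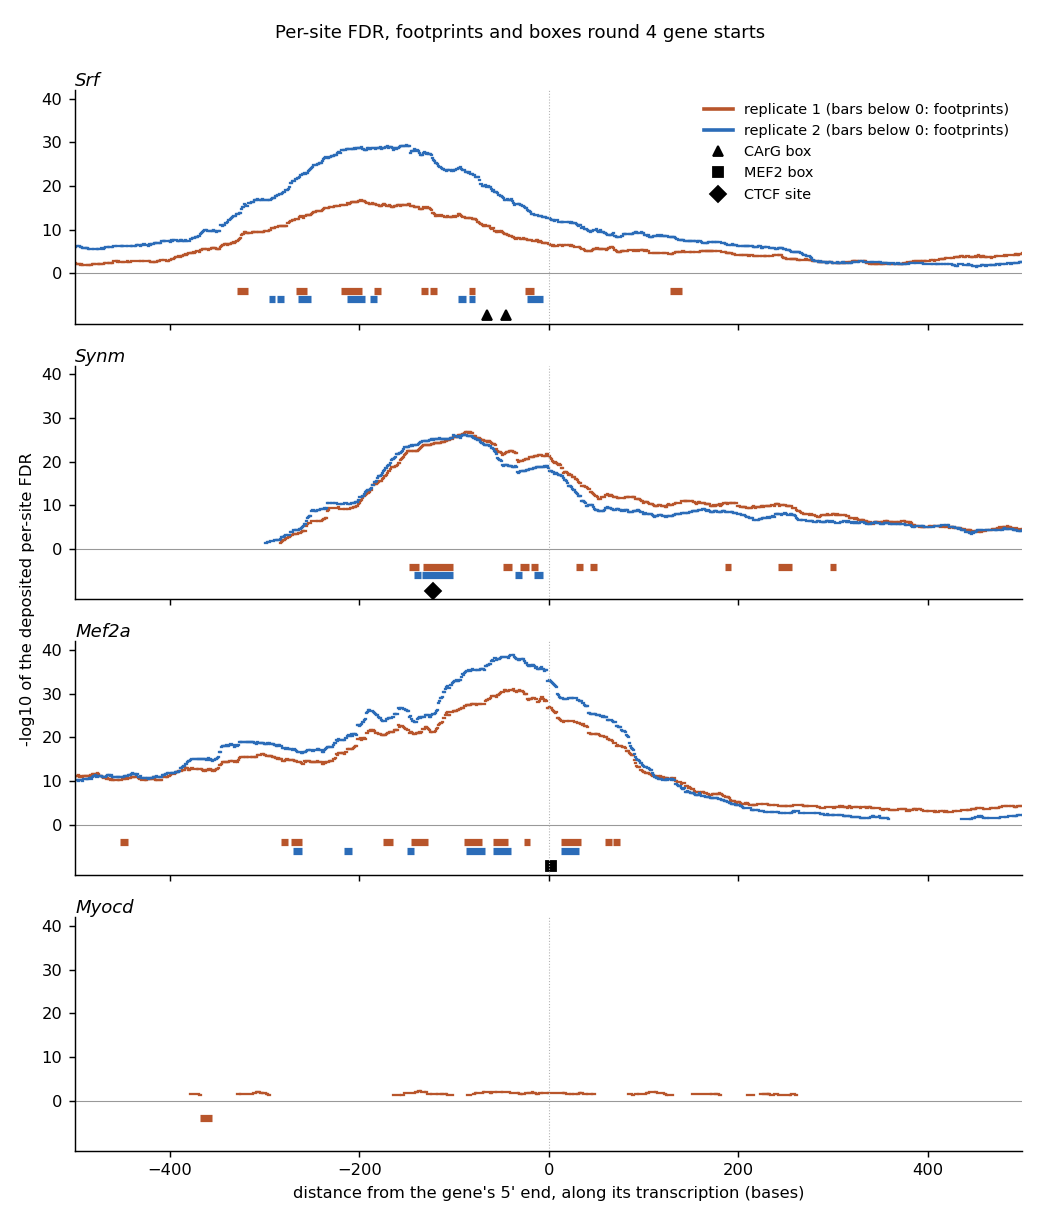
Minus log10 of the deposited per-site FDR (vertical axis; no line where no value is listed) by distance in bases from the 5′ end of Srf, Synm, Mef2a and Myocd (horizontal axis), with footprints as bars below 0 and boxes as black symbols. At Srf the 2 CArG boxes lie between footprints, at Synm a footprint of each library covers the CTCF site, and Myocd has 360 of 1001 bases listed in replicate 1 and none in replicate 2.

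The MEF2 box, a 10-base AT-rich element named here without its letters, was found in 1 of 61 member sites, against 0.873% of all sites. It lay at the Mef2a start, at positions -2 to 7, across the first base of the gene. No footprint overlapped it in either library. The nearest downstream footprint began at 13 bases in both. No member site away from a start held either box in its central 200 bases, out of 37 such sites. Over all sites away from starts the shares were 0.986% for the CArG box and 1.16% for the MEF2 box. At such shares, 37 sites are too few for the absence to describe these genes.

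Some other motifs at these starts did lie under footprints. At the Mef2d start, the pair of GC boxes (GGGCGG) and the CCAAT box lay wholly inside footprints in both libraries, the second GC box and the CCAAT box under 1 long footprint from -96 to -53 in replicate 1 and -96 to -51 in replicate 2. In replicate 2 this footprint ran past the edge of the narrow start peak. At the Mef2a start the NRF1 motif (CGCNTGCG) lay wholly inside a footprint in both libraries, whereas the ETS motif (CCGGAA) was touched in replicate 1 only. At the Srf start the ETS motif lay under no footprint, and each GC or CCAAT box was overlapped in part at most. The CCAAT box of the Synm start and the GC box of the Csrp1 start lay under no footprint in either library. The site at -3.90 kb from Mef2d held a CRE (TGACGTCA), the element bound by CREB and ATF factors, with all 8 bases inside a footprint in each library. A CRE was present in 1 of 61 member sites and in 1.09% of all sites.

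Of the motifs set against footprints, the one most often overlapped over all sites was the CTCF site, a 12-base consensus of the insulator and loop protein CTCF. It was added after the sequences had been read, and its count is a description only. It was found in 11 of 61 member sites (18.0%), against 11.0% of all sites, and in 8 of the 37 away from starts (21.6%), against 16.2% of all such sites. In replicate 1, 8 of these motifs lay wholly inside a peak and all 8 were overlapped by a footprint, 7 of them covered in full. In replicate 2 all 11 lay inside a peak and were overlapped, 9 of them covered in full. Over all sites, footprints overlapped 93.3% of such motifs in replicate 1 and 91.8% in replicate 2, while for the CArG box the shares were 28.1% and 25.9% and for the MEF2 box 19.8% and 24.0%. The members thus followed the genome-wide share for the CTCF site, and with only 1 central CArG box and 1 central MEF2 box no share can be read for those.

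CTCF sites were present in the windows of Srf, Mef2a, Mef2c, Csrp1 and Synm and in neither the Myocd nor the Mef2d window. At the Synm start the site lay at -127 to -116, and at the 4833412C05Rik start and the -29.1 kb site of the same window there was another. In the Csrp1 window they lay at the sites at -49.5, 33.1, 67.9 and 69.95 kb. In the Mef2c window the site was the one in intron 8, in the Srf window it was a Cul9 start, and in the Mef2a window the sites were at 173 and 144 kb. The sites at 144 kb from Mef2a and at 67.9 kb from Csrp1 had a peak in replicate 2 only. The Csrp1 site just beyond the 3′ end, chr1:135753041-135753280 on the plus strand, is printed because it was the highest distal site of that window, with the CTCF site in capitals.
Csrp1 downstream: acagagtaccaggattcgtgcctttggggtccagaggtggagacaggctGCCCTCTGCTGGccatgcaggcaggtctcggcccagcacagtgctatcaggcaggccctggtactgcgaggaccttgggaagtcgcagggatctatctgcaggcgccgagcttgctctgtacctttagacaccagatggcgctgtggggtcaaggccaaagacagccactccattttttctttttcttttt

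**Figure D5:**
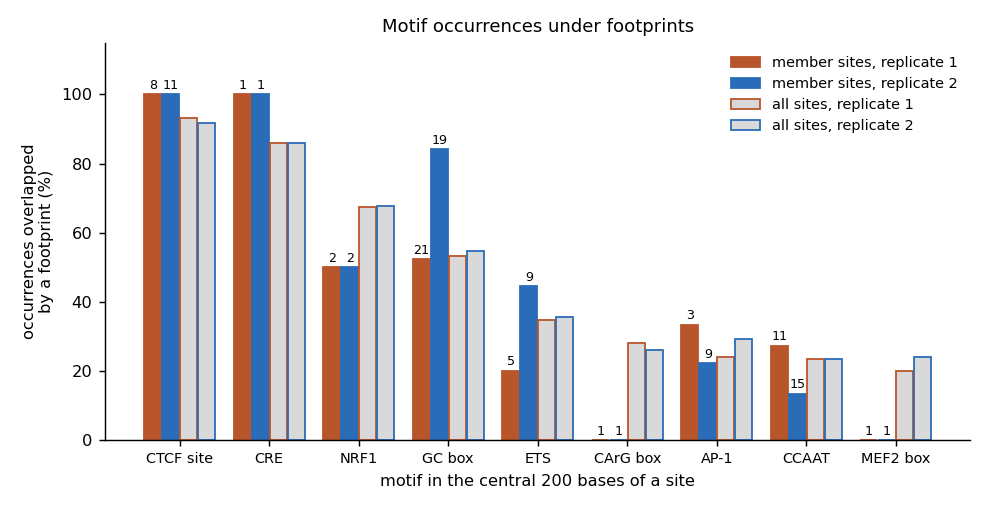
Share of motif occurrences in the central 200 bases of a site that a footprint of the same library overlaps (vertical axis, percent), by motif (horizontal axis), in sites of the 7 genes (filled bars, with the number of occurrences above) and in all sites (pale bars). All CTCF sites of the members were overlapped, and the single CArG box and single MEF2 box were not; the numbers above the bars are small for every motif.

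In all, peaks in the 7 windows held 104 footprints in replicate 1 and 116 in replicate 2, with 12.2 and 11.7 per kb of peak, against 11.6 and 11.4 per kb over all peaks. A footprint was present in 37 of 45 member sites with a peak in replicate 1 and in 44 of 54 in replicate 2. Over all sites the counts were 31326 of 36866 in replicate 1 and 38708 of 45974 in replicate 2. Of the footprints in shared sites, 59.0% in replicate 1 and 56.0% in replicate 2 overlapped a footprint of the other library, against 58.0% and 55.0% over all shared sites. Footprint density and repeatability at these genes were therefore at the level of the genome. Csrp1 had the most, with 27 in replicate 1 and 45 in replicate 2, and Myocd among the fewest, with 6 and 5.

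Among 14 cofactors and regulators of SRF, 11 had a start peak in both libraries, Olfm2 in 1 library, and Abra and Nkx2-5 in neither. The highest was that of Mrtfa at percentiles 97.4 and 99.1, a cofactor that carries actin signals to SRF, followed by its relative Mrtfb at 86.1 and 87.0 and by Klf4, a repressor of smooth muscle genes, at 85.6 and 86.3. The MRTF cofactor genes thus had start peaks where the myocardin gene had none. Among 14 relatives and partners of MEF2, 12 had a start peak in both libraries, and Hdac9 and Vgll2 had none. Ppp3ca, a catalytic subunit of calcineurin, stood at 99.6 and 99.9, the deacetylase gene Hdac4 at 99.1 and 99.8, and the methyltransferase gene Carm1 at 97.8 and 99.7.

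Among 18 target genes of SRF, 13 had a start peak in both libraries and 5 had none: Acta2, Actg2, Tagln, Cnn1 and Lmod1, all genes of the smooth muscle contractile apparatus. Other genes of that kind did have start peaks in both libraries, at percentiles 74.6 and 87.0 for Smtn, 75.7 and 72.9 for Mylk and 54.5 and 47.3 for Myh11, which were chosen after their values were seen. Those with the highest were Actb, which encodes cytoplasmic actin, at 99.1 and 99.2, the tropomyosin gene Tpm1 at 98.1 and 97.9, and the immediate early gene Egr1 at 98.6 and 97.2. Among 14 relatives and partners of Csrp1 and Synm, 11 had a start peak in both libraries and Nes in 1. Actn4, Vcl and Tln1, genes of actin crosslinking and adhesion, led them with mean percentiles of 98.9 ± 0.555, 96.4 ± 0.884 and 91.3 ± 2.17 (SD, n = 2). The Tln1 peak also lies at the start of Creb3. The muscle-specific relative Csrp3 and the desmin gene Des had none in either library. These 4 lists were above the share of all coding genes with a start peak in both libraries, and the lists were drawn up by hand with earlier results known, so the counts describe these genes only.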

How the data were processed

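DNase-seq of urinary bladder was available for 2 libraries of 1 group, numbered as replicates by the labels. Per the labels, coordinates refer to mm10, an assembly of the C57BL/6J genome, so the CAST/EiJ reads had no reference of its own. For aligner, peak caller and footprint caller, names and versions were not given in the sources used here. Peak heights, a signal of unstated scale, were used as deposited, in lists made per library. Heights were whole multiples of 1 step per library (tolerance 0.05 of a step), and the absolute depth is unknown. The deposited per-base FDR (an adjusted p-value) is listed up to 0.05. Every footprint carries the deposited value 0.01, a threshold whose kind (p-value or FDR) is unstated.

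The shorter peak list of each library was used, the longer one as an alternative. Peaks overlapping by at least 1 base were merged across libraries into sites. GENCODE M21 gave genes and starts. Genes on the mitochondrial chromosome were left out. Motifs were searched on both strands in the 200 bases centred on a site, and only footprints wholly inside a peak of the same library were counted as in the peak. For each window the strongest shared start site and up to 3 shared distal sites with the highest mean percentile are named, and from each list up to 3 genes with the highest start peaks and those with none. The members and lists were chosen with earlier results of these data known. With 1 group there was no contrast and no test, and genes and sites are not replicates. Merging, motif search and ranking were tested on simulated data. Python 3.11.15, NumPy 2.4.6, SciPy 1.17.1, pysam 0.24.0 and Matplotlib 3.10.9 were used. No shuffling or resampling was done.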

Additional observations from a re-analysis of the deposited data

How the results depend on the processing

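Of 38 alternative values for the 6 summary results, 30 stayed within 1.5 times the reported count, or within the interval of the shared fraction. The 30 include counts of sites and start peaks with 1 library left out, where no second library is needed. Those counts cannot test sharing. The count of genes with a start peak in both libraries was 4 with the 5′ end of the gene alone, 5 with the stronger 50% of peaks and 6 otherwise, and 6 in each library taken alone. Shared sites fell to 25 with the stronger 50% of peaks, to 25 in windows of 20 kb and to 10 in gene bodies alone, and reached 60 in windows of 100 kb, each a change in the stretch or the peaks counted. The longer peak list gave 57 shared sites of 96. The shared fraction was 47.5% when peaks had to overlap by 50% of each, and from 55.6% to 67.6% under the other settings. It has no value with 1 library. With 1 library left out, sites numbered 45 to 54, footprints 104 to 116, and sites with a CArG box or with a MEF2 box 1 in each case. CArG boxes were found in 3 sites over the whole site, where 0.992% of all sites held one. With at most 1 mismatch, CArG boxes were found in 9 sites and in 11.0% of all sites, and MEF2 boxes in 7 and in 10.4%. The reported box counts therefore depend on how strictly the box is written.

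Depth limits these data: a library without a stated depth gives no bound for the missing Myocd peak, and an F1 genome aligned to 1 parental reference can lose reads at sites that differ. An SD rests on 2 libraries.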
